A study of Danio rerio with 6 samples.

Results

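U4 and U6 are spliceosomal small nuclear RNAs (snRNAs), and their fragments were examined in small RNA libraries of zebrafish embryos at 5.5 hpf (50% epiboly, the gastrula). The genes taken were those named U4 or U6 in the snRNA table, without U4atac and U6atac, that had a count in at least 1 library. This gave 44 of the 724 U4 and U6 genes listed, 13 of 30 for U4 and 31 of 694 for U6, in a table of 1229 snRNA genes of which 171 had a count. The members were chosen by their counts, as a count above 0 in any library, so having a count is not a result here. The F1-γ group was the offspring of adult AB wild type fish irradiated during gametogenesis by a 60Co source at 8.7 mGy/h to a total of 5.2 Gy and mated 1 year later. The F1-C group was the offspring of AB wild type fish that were kept apart and not irradiated. Each group had 3 libraries, each made from whole embryos in a pool of 100, and no embryo was itself irradiated.

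In the nucleus, U6 carries the residues that form much of the catalytic centre of the spliceosome, and U4 is the partner that holds U6 inactive by base pairing until the spliceosome is activated. Both RNAs enter the spliceosome together in the U4/U6.U5 tri-snRNP, after U1 has paired with the 5′ splice site and U2 with the branch site. U4 is transcribed by RNA polymerase II and U6 by RNA polymerase III, and vertebrate genomes hold many copies and pseudogenes of both. The libraries held only reads shorter than either RNA, so the counts are of fragments of U4 and U6, and the level of the full-length RNA was not measured.

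The snRNA table held 24212, 30257 and 26487 counts in F1-C against 9138, 6034 and 5756 in F1-γ, a mean 3.87-fold lower in F1-γ. The miRNA table went the other way, with 704953, 1099486 and 1167284 counts in F1-C against 1464138, 1383450 and 1245801 in F1-γ. A U4 or U6 value therefore depends on what it is divided by, and each is given below as the count, in CPM of the snRNA table (counts scaled to the table's total), or in CPM of the miRNA table. With whole embryos pooled, fewer cells of a type and less RNA per cell cannot be told apart. The miR-430 family, which marks the early embryo, took between 83.9% and 88.4% of the miRNA counts in every library, and miR-1-3p, miR-206-3p, miR-133a-3p, miR-124-3p and miR-9-5p, which mark later muscle or neural cells, were each at or below 0.0555%. Of these, miR-1-3p took 0.00227%, 0.00291% and 0.00227% in F1-C against 0.00468%, 0.00828% and 0.0123% in F1-γ, and miR-9-5p took 0.0355%, 0.0353% and 0.0409% against 0.0495%, 0.0465% and 0.0555%. Both were higher in F1-γ without overlap, while the groups overlapped for miR-206-3p, miR-133a-3p and miR-124-3p. The part of miR-1-3p and miR-9-5p in the results below was not tested.

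A few genes held nearly all counts of both families. The 3 U4 genes with a summed count above 200 held 95.1% of the 2203 U4 counts, and the 4 such U6 genes held 96.7% of the 1687 U6 counts. In GRCz10 coordinates, as listed with the counts, U4.29 (ENSDART00000118843) lies at chr4:14726319-14726459 on the plus strand. U4.30 (ENSDART00000124383) lies at chr4:14734228-14734368 on the same strand, 7768 bases beyond the end of U4.29. U4.25 (ENSDART00000115598) lies at chr25:5213092-5213232 on the minus strand, and all 3 U4 genes are 141 nt long. U6.14 (ENSDART00000117985) lies at chr9:21393747-21393853 on the plus strand. The other 3 U6 genes lie on the minus strand, U6.7 (ENSDART00000119004) at chr11:6074705-6074811, U6.279 (ENSDART00000125875) at chr6:18586061-18586167 and U6.1 (ENSDART00000115944) at chr21:22334394-22334500, and all 4 are 107 nt long.

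The places with most annotated copies had few counts. How reads on several loci were counted is not given, so few counts there need not mean few fragments from those copies. Chromosome 4 carried 666 of the 694 U6 genes listed, 96.0% of them, between 30932509 and 70425722, but only 22 had a count, and together these held 27 counts or 1.60% of all U6 counts. None of the 4 main U6 genes is on that chromosome. Likewise, chromosome 17 carried 25 of the 30 U4 genes, of which 9 had a count, with 108 counts in all or 4.90% of the U4 counts. The 2 U4 genes on chromosome 4, U4.29 and U4.30, held 1740. Of all listed genes, 43.3% had a count for U4, 4.47% for U6 and 25.1% for the other snRNAs (127 of 505). These shares describe the rule by which the members were chosen and are not a result. Just inside the rule were 23 genes with 1 count in 1 library, 22 of U6 and 1 of U4. Just outside were 680 genes at 0 in all 6 libraries, where a count of 0 still allows up to 3 counts per library.

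In U4, fragments of U4.29 were far fewer in F1-γ and those of the other 2 main genes were less reduced. U4.29 had 478, 412 and 463 counts in F1-C against 47, 43 and 29 in F1-γ. Every F1-γ library was below every F1-C library, and the mean was 11.4-fold lower, from 451 ± 34.6 to 39.7 ± 9.45 (SD, n = 3 each). U4.25 had 78, 114 and 103 counts in F1-C against 24, 22 and 13 in F1-γ, a mean 5-fold lower. U4.30 had 43, 81 and 71 counts in F1-C against 29, 30 and 14 in F1-γ, a mean 2.67-fold lower. Neither gene's groups overlapped in counts. Relative to the snRNA table, U4.29 went from 16946 ± 3098 to 5769 ± 1176 CPM (SD, n = 3 each), 2.94-fold lower without overlap, while the groups overlapped for U4.25 (3626 ± 355 and 2844 ± 719 CPM) and for U4.30 (2378 ± 521 and 3526 ± 1306 CPM).

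**Figure D1:**
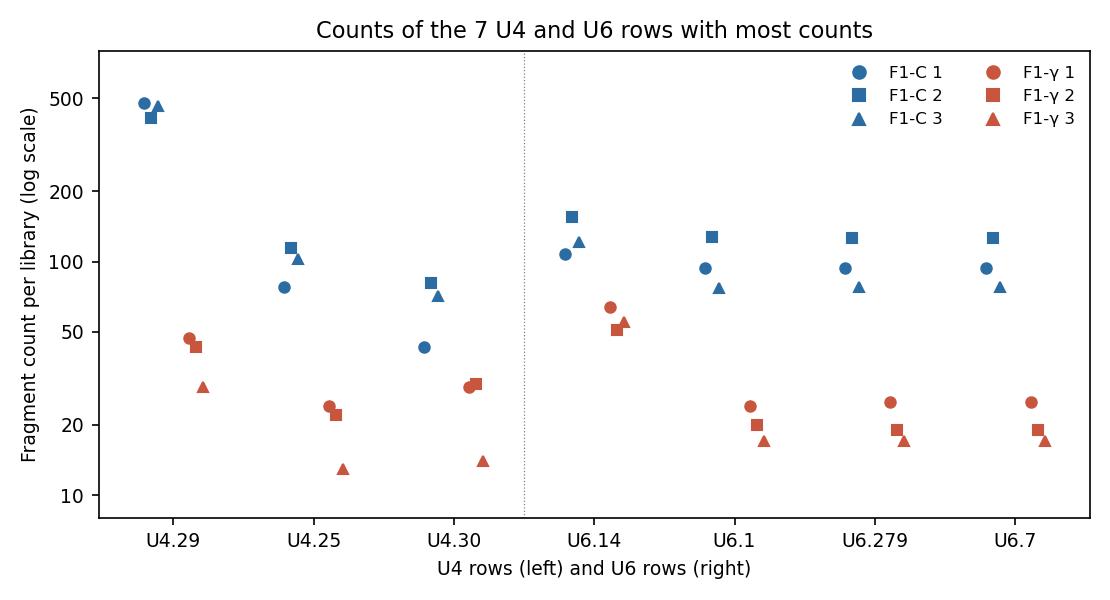
Fragment counts per library on a log axis for the 7 genes with a summed count above 200, 3 of U4 on the left and 4 of U6 on the right, with 1 point per library (blue F1-C, red F1-γ, symbol by replicate). The F1-γ points lie below the F1-C points for each gene, and the gap is widest for U4.29 (478, 412 and 463 against 47, 43 and 29). The cut at 200 was on a sum that came mostly from F1-C in each gene.

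The make-up of the U4 fragments thus differed between the groups. U4.29 held 75.6%, 64.4% and 71.7% of the U4 counts in F1-C against 38.2%, 41.3% and 50.0% in F1-γ. U4.30 held between 6.80% and 12.7% in F1-C and between 23.6% and 28.8% in F1-γ. There were 11.1, 5.09 and 6.52 counts of U4.29 for each count of U4.30 in F1-C against 1.62, 1.43 and 2.07 in F1-γ. Both counts come from the same library and both genes have the same annotated length, so the ratio needs no correction for depth or length. How reads shared between U4 copies were counted is not known, and it could alter this ratio. The remaining 10 U4 genes had at most 27 counts each. Those with most were U4.17, with 8, 9 and 2 counts in F1-C against 5, 3 and 0 in F1-γ, and U4.28, which is 108 nt long, with 8, 6 and 2 in F1-C against 2, 1 and 1 in F1-γ. Both are among the copies on chromosome 17, whose summed counts overlapped between the groups, with 33, 33 and 8 in F1-C against 23, 9 and 2 in F1-γ.

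Summed over all its genes, U4 had 632, 640 and 646 counts in F1-C against 123, 104 and 58 in F1-γ. The F1-C libraries had a mean of 639 with an SD of 7.02 counts, and F1-γ at 95.0 ± 33.4 was 6.73-fold lower. That F1-C SD is below what counting error alone would give, so it is no measure of the spread between libraries. In CPM the U4 sum was 23881 ± 2514 in F1-C against 13591 ± 3581 in F1-γ (SD, n = 3 each), 1.76-fold lower, and in miRNA CPM it was 677 ± 190 and 68.6 ± 19.6, 9.88-fold lower. The groups did not overlap on any of these scales. U4 took 2.39% of the snRNA counts in F1-C against 1.36% in F1-γ.

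In U6, fragments of U6.14 were less reduced than those of the other main genes. U6.14 had 108, 156 and 121 counts in F1-C against 64, 51 and 55 in F1-γ, a mean 2.26-fold lower without overlap. In CPM it was instead higher in F1-γ, at 4461, 5156 and 4568 in F1-C against 7004, 8452 and 9555 in F1-γ, again without overlap. U6.7 and U6.279 had the same count in every library, 94, 126 and 78 in F1-C against 25, 19 and 17 in F1-γ, a mean 4.89-fold lower. U6.1 differed from them by no more than 1 count in any library, with 94, 127 and 77 in F1-C against 24, 20 and 17 in F1-γ. These 3 genes are on 3 chromosomes, and whether the same reads were counted on each of them is not known. They enter the sums, shares and numbers of genes below as 3 genes, and the ratio of U4 to U6 is also given with them taken as 1.

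The 27 other U6 genes had few counts. U6.519, at chr1:6451279-6451383 on the plus strand, had 0, 6 and 7 counts in F1-C against 5, 4 and 2 in F1-γ, and none of the other 26 had more than 3 in all. Those 26 together had 8, 2 and 8 counts in F1-C against 9, 2 and 2 in F1-γ, which overlapped. U6.14 held 27.1%, 28.7% and 32.8% of the U6 counts in F1-C against 42.1%, 44.3% and 50.0% in F1-γ. There were 1.15, 1.24 and 1.55 counts of U6.14 for each count of U6.7 in F1-C against 2.56, 2.68 and 3.24 in F1-γ, so the groups did not overlap.

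Summed over all its genes, U6 had 398, 543 and 369 counts in F1-C against 152, 115 and 110 in F1-γ. The mean was 3.47-fold lower in F1-γ, 437 ± 93.2 against 126 ± 22.9 (SD, n = 3 each). In CPM the groups overlapped, at 16438, 17946 and 13931 in F1-C against 16634, 19059 and 19111 in F1-γ. In miRNA CPM the sum was 458 ± 128 in F1-C against 91.7 ± 10.8 in F1-γ, 4.99-fold lower without overlap. U6 took 1.61% of the snRNA counts in F1-C against 1.83% in F1-γ.

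**Figure D2:**
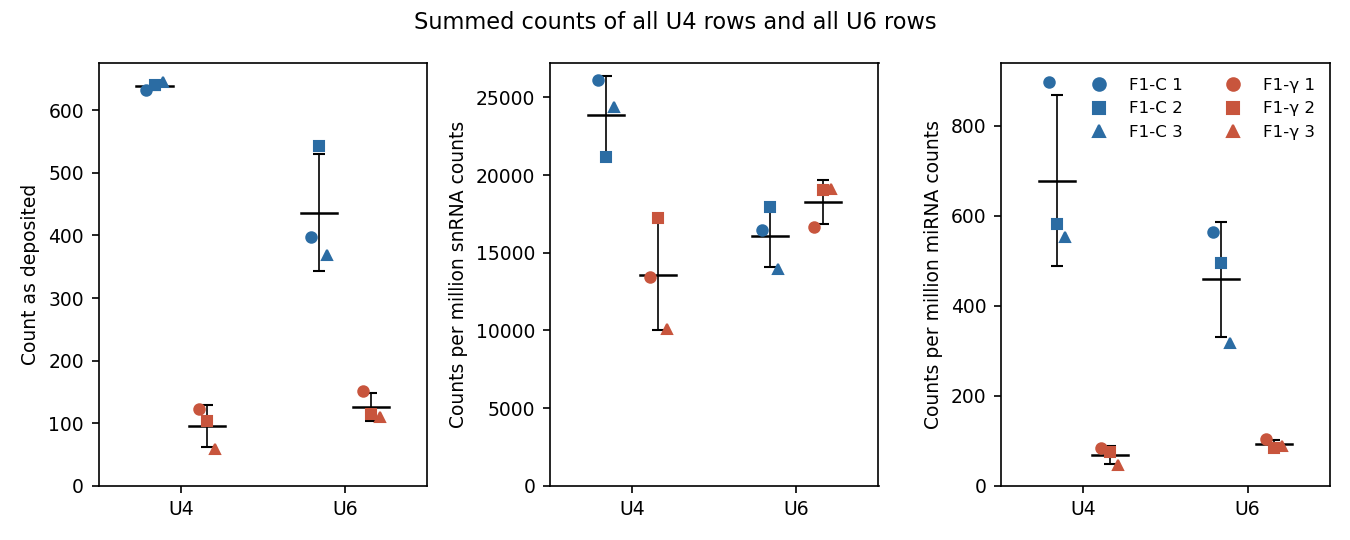
Summed counts of all U4 genes and all U6 genes in each library on 3 linear scales that start at 0 (left, the count; middle, CPM of the snRNA table; right, CPM of the miRNA table), with blue points for F1-C, red for F1-γ, a line for the mean and bars of 1 SD (n = 3). Both families were lower in F1-γ in counts and in miRNA CPM, while in CPM of the snRNA table U4 was lower (23881 against 13591) and the U6 groups overlapped.

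The ratio of U4 to U6 in a library does not depend on library size. In counts it was 1.59, 1.18 and 1.75 in F1-C against 0.809, 0.904 and 0.527 in F1-γ, so U4 fragments outnumbered U6 fragments in every F1-C library and in no F1-γ library. The means were 1.51 ± 0.295 and 0.747 ± 0.196 (SD, n = 3 each), 2.02-fold lower in F1-γ. Per nucleotide of annotated length the ratio was 1.14 ± 0.223 and 0.568 ± 0.148. With genes of identical counts taken once, it was 1.97 ± 0.385 and 0.898 ± 0.245, and with U6.7, U6.279 and U6.1 taken as 1 gene, it was 2.75 ± 0.466 and 1.11 ± 0.312, so whether U4 or U6 was in excess depended on how copies were counted, and the lower ratio in F1-γ did not. The ratio of 2 sums over chosen genes was not tested, and an exact permutation test of 3 libraries against 3 could not give a p below 0.10.

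The lower ratio of the summed counts rested on U4.29. Without U4.29, a split made after the values were seen, the U4 genes gave 0.387, 0.420 and 0.496 counts for each U6 count in F1-C against 0.50, 0.530 and 0.264 in F1-γ. The groups then overlapped, with means of 0.434 ± 0.0559 and 0.431 ± 0.146 (SD, n = 3 each). Between the genes with most counts in each family, U4.29 and U6.14, the ratio was 4.43, 2.64 and 3.83 in F1-C against 0.734, 0.843 and 0.527 in F1-γ, a mean 5.18-fold lower. U4.29 made up 81.6% of their joint counts in the first F1-C library (95% Wilson interval 78.2% to 84.5%), and 72.5% (68.7% to 76.0%) and 79.3% (75.8% to 82.4%) in the others. In F1-γ it made up 42.3% (33.6% to 51.6%), 45.7% (36.04% to 55.8%) and 34.5% (25.2% to 45.2%), and no interval of F1-γ met one of F1-C. These intervals cover counting error only. The groups overlapped for U4.30 to U6.14 (0.501 ± 0.0956 and 0.432 ± 0.168) and for U4.25 to U6.7 (1.02 ± 0.264 and 0.961 ± 0.197). Each of these pairs joined genes with similar folds in counts, 2.67 with 2.26 and 5 with 4.89. Their overlap therefore does not show that other pairs without U4.29 overlap. Within U4, U4.25 to U4.30 was 1.56 ± 0.223 in F1-C against 0.830 ± 0.0976 in F1-γ, lower without overlap.

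**Figure D3:**
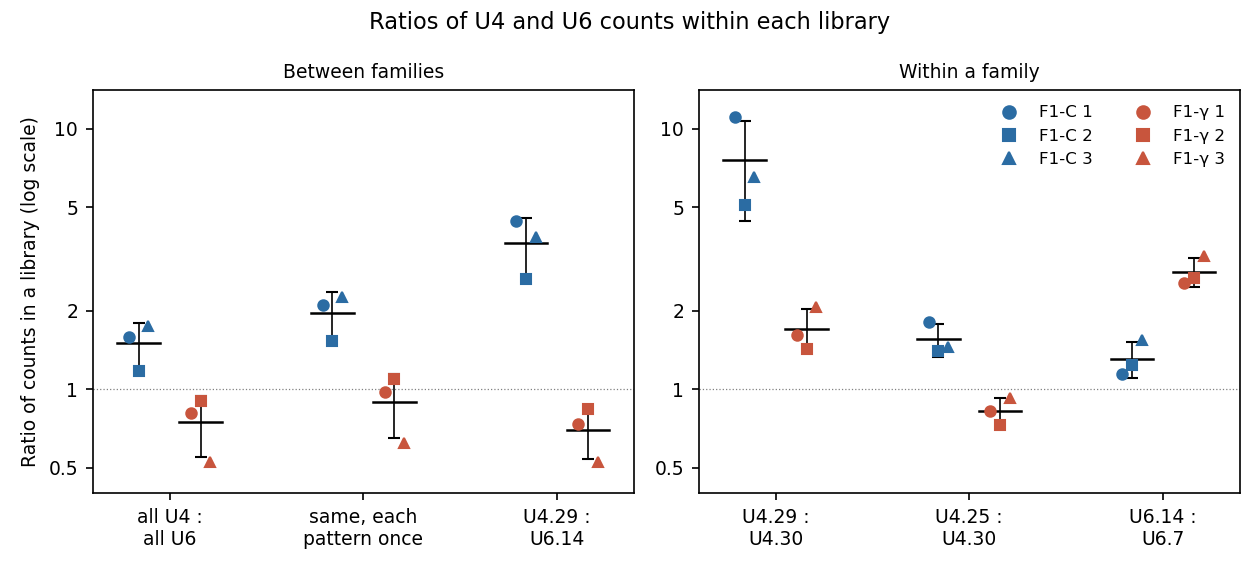
Ratios of counts within each library on a log axis, between the families on the left and within a family on the right, with blue points for F1-C, red for F1-γ, a line for the mean and bars of 1 SD (n = 3). All U4 to all U6 went from 1.51 to 0.747 and U4.29 to U6.14 from 3.63 to 0.702, and within the families U4.29 to U4.30 was lower (7.57 against 1.71) and U6.14 to U6.7 higher (1.31 against 2.83) in F1-γ.

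Next, differential expression was tested over the whole snRNA table by the quasi-likelihood method of edgeR with TMM factors (a scaling that trims the genes that differ most), on the 27 genes with more than 100 counts in at least 3 libraries. A gene was called at a Benjamini-Hochberg adjusted p below 0.05 together with a change past 0.6 in log2 (log2FC). Of the 44 U4 and U6 genes, 2 passed the filter, both through F1-C alone. U6.14 was called higher in F1-γ (log2FC 1.65, SE 0.290, adjusted p = 0.00408), although its count was lower in each F1-γ library. U4.29 was lower but not called (log2FC -0.75, SE 0.248, adjusted p = 0.0595). With 1 library left out, it was called without F1-C library 2 or 3 or without F1-γ library 1 or 3 (adjusted p between 0.0136 and 0.0424). It was not called without F1-C library 1 (adjusted p = 0.123) or without F1-γ library 2 (adjusted p = 0.0664). In the fit of all libraries 6 of 27 genes, or 22.2%, were called higher and 4, or 14.8%, lower. The other 42 genes could not be tested at this filter, since none had more than 100 counts in 3 libraries.

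Both outcomes depended on the library size used, as did the direction for U6.14. With snRNA totals in place of TMM factors, U4.29 was called lower (log2FC -1.56, SE 0.493, adjusted p = 0.00627) and U6.14 was not called (0.81, SE 0.398, adjusted p = 0.0616), while 13 of 27 genes (48.1%) were called lower. With library sizes from the miRNA table, U4.29 (-4.06, SE 0.502, adjusted p = 3.42e-12) and U6.14 (-1.67, SE 0.542, adjusted p = 0.0033) were both called lower, as were all 27 genes (100%). The median log2FC of the 27 genes moved with the scaling, from -0.02 with TMM to -0.83 with snRNA totals and -3.35 with miRNA totals. With TMM, U4.29 stood at -0.74 and U6.14 at 1.67 relative to that median, and over all 171 genes with a count they stood at -2.35 and 0.04 relative to theirs. Another library size moves all genes alike, so it leaves these distances nearly as they are by construction. The fitted log2FC of U4.29 was below that of U6.14 in each fit of all libraries, by a difference between -2.48 and -2.34, which library size likewise hardly moves.

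Fitting all 171 genes that had a count brought in the other members. In this fit U4.29 was called lower (log2FC -2.28, SE 0.382, adjusted p = 8.58e-08) and U6.14 was close to no change (0.11, SE 0.388, adjusted p = 0.873). U4.29 was the 1 gene called among the 44, beside 20 of 171 called lower (11.7%) and 9 called higher (5.26%). The median log2FC over the 13 U4 genes was -0.10 and over the 31 U6 genes -1.06, beside 0.07 over all 171, but most of these genes had few counts. The U6 median turned to 0.45 over 10 genes with identical genes collapsed, and to 0.59 with DESeq2. Under edgeR's exact test 5 of the 44 members were called lower, beside 24 of all 171 genes. These were U4.29, U4.25 (adjusted p = 0.04), U6.1 (adjusted p = 0.0455), U6.279 and U6.7 (adjusted p = 0.0433). With identical genes collapsed 4 of 20 members were called lower, beside 17 of all 103 genes. In the quasi-likelihood fit U4.25 (log2FC -1.08, SE 0.436, adjusted p = 0.0793), U6.7 and U6.279 (-1.06, SE 0.434, adjusted p = 0.0793) and U6.1 (-1.06, SE 0.434, adjusted p = 0.0793) were not called, nor were U4.30 (-0.16, adjusted p = 0.819), U4.17 (-0.07, adjusted p = 0.939), U4.28 (-0.77, adjusted p = 0.691) and U6.519 (1.00, adjusted p = 0.502). The TMM factors of the F1-C libraries were all above 1 over 27 genes and all below 1 over 171, which shifted every log2FC between these fits. With library sizes from the miRNA table, 4 U4 genes and 4 U6 genes were called lower and none higher, against 45 of 171 (26.3%). The quasi-likelihood fit with TMM of the 43 genes with more than 10 counts in at least 3 libraries held 7 members. There U4.29 (log2FC -1.40, adjusted p = 0.00585) was called lower and U6.14 (1.01, adjusted p = 0.02) higher. Of all 43, 11 were called lower and 13 higher. U4.25 (-0.21, adjusted p = 0.475), U6.7 and U6.279 (-0.14, adjusted p = 0.60) and U6.1 (-0.13, adjusted p = 0.617) were not called. U4.30 was at 0.70 and not called (adjusted p = 0.0753).

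**Figure D4:**
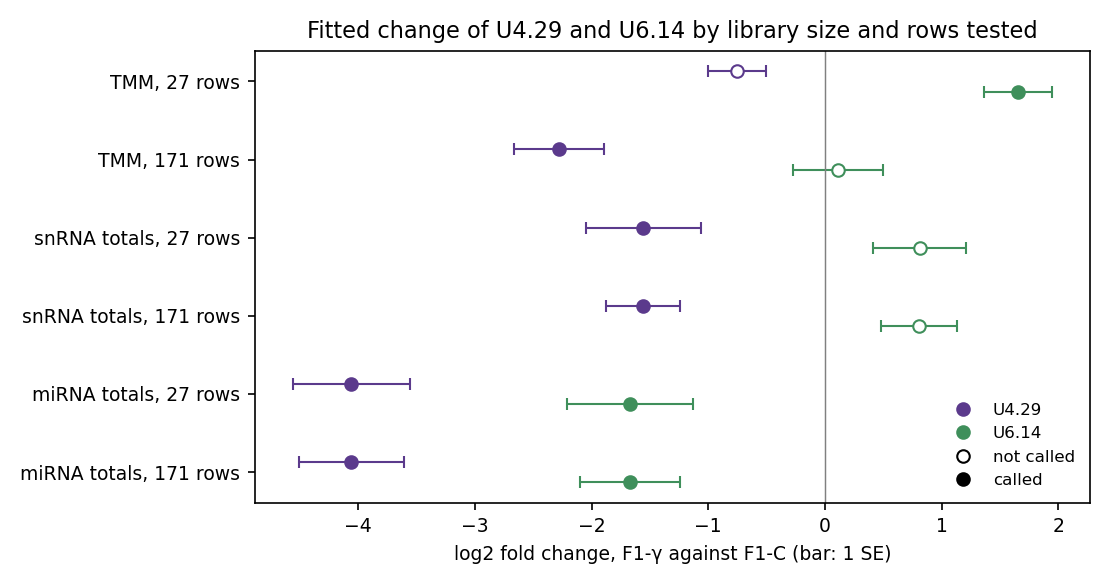
Fitted log2FC of U4.29 (purple) and U6.14 (green) in F1-γ against F1-C, with bars of 1 SE, for 3 library sizes and for fits of 27 or 171 genes, filled where called and open where not. U4.29 is below 0 in each fit and U6.14 lies between 1.65 and -1.67, and a change of library size moves both genes together.

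Counted over all members, the groups did not overlap in counts for 3 of 13 U4 genes and 4 of 31 U6 genes, all lower in F1-γ, beside 34 of 171 snRNA genes or 19.9%. These 7 are the genes with a summed count of more than 200. In each, most of that sum came from F1-C, so the cut is not independent of being lower in F1-γ. In CPM, the groups did not overlap for 1 U4 gene, U4.29, lower in F1-γ beside 11.1% of all genes, and for 2 U6 genes, U6.14 and U6.519, higher beside 17%. In miRNA CPM, 4 U4 and 4 U6 genes were lower without overlap, beside 35.1%, and none was higher, beside 0.585%.

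U6.1 was the 1 member that lay within a listed long intergenic non-coding RNA (lincRNA), and it lay within 2 of them, on opposite strands of chromosome 21. ENSDART00000142034.2 (chr21:22330675-22338370, minus strand) had 148, 206 and 176 counts in F1-C against 118, 106 and 95 in F1-γ. ENSDART00000153803.3 (chr21:22333232-22335576, plus strand) had 147, 206 and 176 in F1-C against 116, 106 and 94 in F1-γ. The 2 lincRNAs thus had nearly the same counts in every library. The libraries are described as non-directional, yet the paper reports the strand of piRNA clusters from them. Whether strand was used to count snRNAs and lincRNAs is not given. With these counts, fragments of the 3 overlapping genes therefore cannot be told apart. Whether the U6.1 reads are among those of the lincRNAs is not known. If they are, U6.1 made up 63.5%, 61.7% and 43.8% of the first lincRNA's counts in F1-C against 20.3%, 18.9% and 17.9% in F1-γ. The counts beyond those of U6.1 were then 54, 79 and 99 in F1-C against 94, 86 and 78 in F1-γ, which overlapped, whereas the full lincRNA counts did not.

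**Figure D5:**
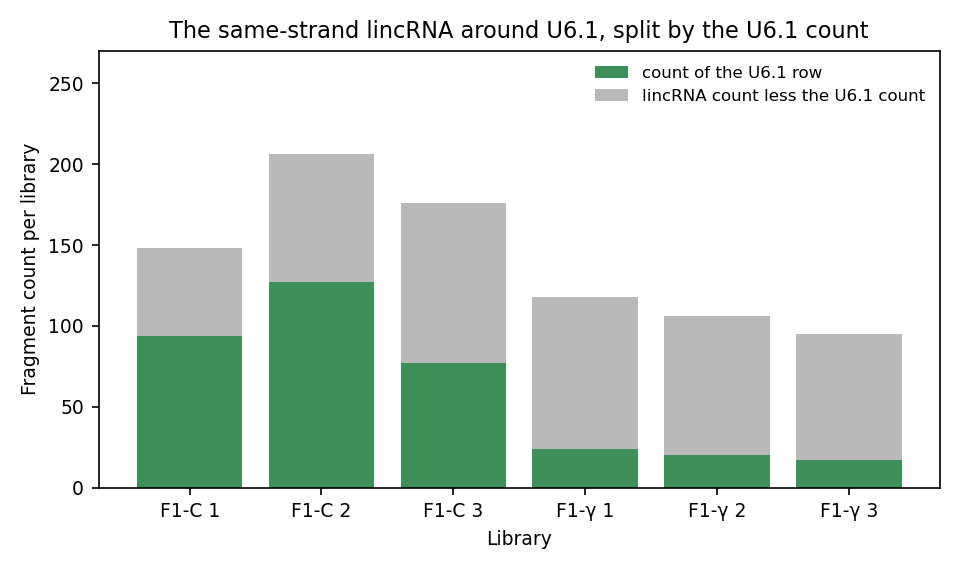
Fragment counts per library of ENSDART00000142034.2, the lincRNA on the strand of U6.1, as stacked bars that start at 0, with the count of U6.1 in green and the lincRNA count less that of U6.1 in grey. The green part is between 77 and 127 in F1-C and between 17 and 24 in F1-γ, while the grey part overlaps (54, 79 and 99 against 94, 86 and 78).

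Of the other major spliceosomal snRNAs, in counts summed over all genes, U1 was more reduced in F1-γ than U4 and U2 less than U6. The U5 sums overlapped between the groups in counts. U1, which recognises the 5′ splice site, had 12921, 15388 and 12251 counts in F1-C against 1730, 1136 and 842 in F1-γ, a mean 10.9-fold lower. U2, which pairs with the branch site, had 9293, 12142 and 11426 in F1-C against 6209, 4388 and 4501 in F1-γ, a mean 2.18-fold lower. But U2 genes differed, and the U2 gene with most counts was 4.54-fold lower in mean count, against 2.26-fold for U6.14. For each U6 count there were 31.3 ± 2.62 U1 counts in F1-C against 9.64 ± 1.88 in F1-γ, and 25.6 ± 4.71 U2 counts against 40.0 ± 1.57. For each U4 count there were 21.2 ± 2.61 U1 counts in F1-C against 13.2 ± 1.96 in F1-γ, and 17.1 ± 2.19 U2 counts against 56.8 ± 18.5 (SD, n = 3 each). None of these 4 ratios overlapped between the groups. U5, which joins U4 and U6 in the tri-snRNP, overlapped between the groups in counts, with 775, 1267 and 1529 in F1-C against 824, 227 and 182 in F1-γ. Only F1-γ library 1 lay within the F1-C range. The ratios of U5 to U6 (2.81 ± 1.17 and 3.02 ± 2.09) and to U4 (1.86 ± 0.58 and 4.01 ± 2.38) also overlapped. In miRNA CPM U5 was lower in F1-γ without overlap (1187 ± 109 in F1-C and 291 ± 236 in F1-γ). In the fit of 27 genes, 4 of 8 U1 genes were called lower, 5 of 10 U2 genes higher, and none of 6 U5 genes or the 1 U12 gene was called. With identical genes collapsed, these were 2 of 4 U1 genes lower, and 3 of 8 U2 genes higher with 2 lower. Of the 6 U5 genes, 2 were called higher with RLE factors or the exact test, and 3 with DESeq2 or identical genes collapsed. The higher call of U6.14 was thus shared with genes of U2 and, in those fits, with some of U5. U5 genes also went the other way. In the fits by the exact test, DESeq2 or with identical genes collapsed, 1 was called lower. With snRNA totals 2 were called lower and 0 higher.

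In the minor spliceosome U4atac and U6atac take the places of U4 and U6. The 1 listed U4atac gene had no count in any library. A ratio of U4atac to U6atac could therefore not be formed. The 2 U6atac genes together had 33, 37 and 50 counts in F1-C against 41, 18 and 39 in F1-γ, which overlapped. In CPM U6atac was higher in F1-γ without overlap (1491 ± 350 in F1-C and 4748 ± 1910 in F1-γ). In miRNA CPM it was lower without overlap (41.1 ± 6.75 and 24.1 ± 9.75). U12, the minor counterpart of U2, had 107, 200 and 170 counts in F1-C against 31, 23 and 5 in F1-γ, without overlap. U11, that of U1, had 46, 34 and 41 in F1-C against 18, 14 and 14 in F1-γ, also without overlap. In CPM U12 was again lower (5816 ± 1213 and 2691 ± 1592), but U11 was higher in F1-γ (1524 ± 389 and 2241 ± 241), both without overlap. In miRNA CPM both were lower without overlap.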

How the data were processed

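Small RNA was sequenced from 3 F1-C and 3 F1-γ libraries, grouped by their labels. One F1-γ title gives 2 numbers, and it was taken as replicate 3. The authors trimmed adapters with Trim Galore 0.3.7, applied quality and length filters, mapped the reads to GRCz10 and deposited whole counts of reads per snRNA and lincRNA, not scaled to library size or gene length. How reads on several loci were counted is not given in the sources used here. The miRNA and piRNA cluster values that the authors deposited are estimated counts, in which reads on several loci are weighted or divided. They were used only for library totals and markers, rounded nowhere.

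The whole snRNA table was fitted with edgeR 4.0.16 (R 4.3.3), TMM factors and the quasi-likelihood test without covariates, over genes with more than 100 counts in at least 3 libraries, with Benjamini-Hochberg adjustment over all genes fitted. SE is the absolute log2FC divided by the square root of F. The test was tested on simulated counts with a log2 change of 1.5, and recovered 84.3% of the changed genes over 27 genes and 25.2% over 171. The changed genes and their directions were drawn at random. A shift of whole families, such as that of U1 against U2, was not simulated, so recovery under it is not known. The authors used edgeR's exact test, which is here an alternative. Named genes are those past the filter and the 5 of each family with the highest mean count. Members, lists and tests were chosen with earlier results of these data known. Of the alternatives, 51 were planned and 9 added after seeing the data, with DESeq2 1.42.0 among them. The snRNA table held between 5756 and 30257 counts per library, fewer in F1-γ, although F1-γ had more counts over all 4 tables. Replicate libraries differed by more than sampling noise over all snRNA genes (chi-square per degree of freedom between 2.65 and 5.58, raised where a read on many copies is counted more than once). Over U4.29, U4.25, U4.30, U6.14 and U6.7 it was between 3.01 and 8.04 in F1-C and between 0.237 and 1.64 in F1-γ. The replicates are separate pools of embryos, so p-values measure the spread between pools.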

Additional observations from a re-analysis of the deposited data

How the results depend on the processing

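The U4 sum was 1.76-fold lower in F1-γ in CPM, 2.94-fold for U4.29 alone, 9.88-fold in miRNA CPM, 9.16-fold in CPM of all 4 tables and 6.73-fold in counts, and between 1.56- and 2.03-fold with 1 library left out. The U6 sum gave 0.88-fold (F1-C over F1-γ) in CPM, 0.57 for U6.14 alone, and turned to 4.99, 4.72 and 3.47 on those other 3 scales, with 0.83 to 0.94 when 1 library was left out. The U4 to U6 ratio was 2.02-fold lower, 5.18-fold for U4.29 to U6.14, and between 1.76- and 2.25-fold with 1 library left out. Genes called lower numbered 4, but 13 with snRNA totals, 27 with miRNA totals or all 4 tables, 7 with DESeq2, 11 with more than 10 counts in at least 3 libraries, 20 with no filter, and 4 to 10 with 1 library left out, 10 being without F1-γ library 1. Genes called higher numbered 6, but 0 with miRNA totals or all 4 tables, 13 with the minimum of 10, and 6 to 8 with 1 library left out. Of U4 and U6 genes, 0 were called lower by edgeR's quasi-likelihood test (2 at an unadjusted p below 0.05, in opposite directions), but U4.29 was called, 1 gene, with RLE factors, snRNA totals, the exact test, DESeq2, identical genes collapsed, the minimum of 10 and no filter, and without F1-C library 2 or 3 or F1-γ library 1 or 3 (0 to 1), and 2 were called with miRNA totals or all 4 tables. U6.14 was called higher, 1 gene, in every fit that left out 1 library (1 to 1), but 0 were with snRNA totals, miRNA totals, all 4 tables or no filter. The log2FC of U6.14, 1.65, turned to -1.67 with miRNA totals and -1.60 with all 4 tables. Over 171 genes, U4.30 (-0.16) turned to 0.15 with RLE factors, 0.56 with snRNA totals and 0.16 with DESeq2 and lay between -0.85 and 0.40 with 1 library left out, U4.17 (-0.07) to 0.16, 0.68 and 0.0044 and between -0.78 and 0.73, and U4.28 lay between -1.15 and 0.21. U6.519 (1.00) turned to -0.65 with miRNA totals and -0.62 with all 4 tables. A minimum of 100 counts in all 6 libraries left no U4 or U6 gene to test. Correlations of deviations were -0.57, 0.54 and 0.05 between libraries with the same replicate number and between -0.71 and 0.51 for the others. With 3 libraries per group this check cannot decide whether the replicate numbers pair the libraries. With the replicate number as a block, 5 genes were called lower and 7 higher, U4.29 had a log2FC of -0.74 (adjusted p = 0.325) and U6.14 of 1.62 (adjusted p = 0.0188). Why settings differ was not tested beyond the shift of the median given above. Counts of 30 or fewer in each F1-γ library limit all U4 and U6 genes but U4.29 and U6.14.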
